A study of Mus musculus with 6 samples.

Results

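The genes of the 2 Polycomb repressive complexes were followed in the RNA-seq of mouse neural stem cells (NSCs) grown at 21% O2, in wild type cells and in cells heterozygous for Setd5. The members were 10 genes chosen by name out of the 53110 listed in the deposited table, namely Ezh1, Ezh2, Eed, Suz12 and Jarid2 of Polycomb repressive complex 2 (PRC2) and Bmi1, Ring1, Rnf2, Cbx2 and Cbx7 of Polycomb repressive complex 1 (PRC1). All 10 passed the filter on low values, a mean of at least 10 normalized counts over the 6 samples, along with 16266 genes in total.

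Polycomb proteins keep developmental genes silent. PRC2 places methyl groups on lysine 27 of histone H3 (H3K27) through its catalytic subunits EZH2 or EZH1, which need EED and SUZ12 to be active. PRC1 binds that mark through a CBX protein and attaches ubiquitin to histone H2A through RING1 or RNF2 (also called RING1B), held by a PCGF protein such as BMI1. In the embryonic cortex the complexes are known for restraining the timing of neuron and glia production, and BMI1 for sustaining NSC self-renewal through repression of the Cdkn2a locus.

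The series compared WT NSCs with Setd5+/- NSCs, a mutation that the study's methods describe as made with CRISPR-Cas9 in NSCs from the embryonic mouse telencephalic cortex. Both genotypes were grown in medium with bFGF and EGF on a Matrigel coat at 21% O2, and each was labelled with 3 samples. With 2 reads taken as 1 read pair, the 3 samples of a genotype differed by no more than the sampling noise of pairs. Chi-square per degree of freedom was then 0.958 to 0.981 within a genotype, 31.7 to 31.9 between genotypes. On single reads, variance over the mean stood at 1.95 (WT) and 1.94 (Setd5+/-), which is above sampling noise. That both ends of each pair were counted is an assumption. Under it the samples were treated as parts of 1 library and each genotype counted as n = 1. The column names of the table give 1 index and lane for the WT samples and 1 clone, index and lane for the Setd5+/- samples, so that genotype, clone, culture and library cannot be told apart.

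No replicate measured how cultures of one genotype differ, and no p-value or SD is given. Each log2 fold change, Setd5+/- over WT, was taken on the log2(normalized count + 1) scale and stands with an exact (Clopper-Pearson) 95% interval that covers counting error of read pairs only. A gene was called where it differed by at least 1.5-fold (0.585 on the log2 scale) and its interval did not hold 0. By this rule 5364 of 16266 genes (33.0%) were called, 3005 higher (18.5%) and 2359 lower (14.5%) in Setd5+/-, and the 3 WT values did not overlap the 3 Setd5+/- values in 65.3% of genes. Reads on genes summed to 30004634 in WT and 21435546 in Setd5+/-. In bulk RNA a change in the mix of cells and a change of RNA per cell cannot be told apart.

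Setd5 itself, the targeted gene, stood at 2498, 2749 and 2780 normalized counts across the WT samples against 2151, 1990 and 2055 across the Setd5+/- samples. The groups did not overlap and the level in Setd5+/- was 0.772 of that in WT, a log2 fold change of -0.37 (-0.44 to -0.30) that was not called. The NSC markers Sox2 (3119 and 2732) and Nes (2378 and 1951) were abundant in both libraries. Other NSC markers differed between them. Of the 10 listed, 2 were called higher, Notch1 (log2 1.61) and Vim (0.60), and 5 were not called. The 3 called lower were Fabp7 (-1.65), Hes1 (-1.09) and Prom1 (-2.92). Prom1 passed the filter through the WT samples alone, so that it had to be lower in Setd5+/-. Of 4 microglial markers, Cx3cr1 and Ptprc had no read in either library, Aif1 had 3 reads in WT and 11 in Setd5+/-, and Csf1r had 355 and 135 and was called lower. Markers of other lineages differed: Gfap, of astrocytes, was higher by 3.87 on the log2 scale, and Sox10, of the oligodendrocyte lineage, was lower by a change of -6.85. Over the lists, 3 of 5 astrocyte markers were called higher and 1 lower, beside 18.5% and 14.5% of all genes. Their summed level was 21777 in WT and 22451 in Setd5+/-, but most of it was Slc1a3 (20983 and 21117), which was not called. The sum thus does not describe the other astrocyte markers. Of 6 oligodendrocyte lineage markers none was called higher and 4 were called lower, beside the same shares of all genes. Among these, Sox10 and Mbp passed the filter through the WT samples alone, so that they had to be lower in Setd5+/-. The summed level of the list was 40598 and 22525, most of it Olig1 (28867 and 15491) and Olig2 (10646 and 6078). The part of such a shift in the values of the Polycomb genes was not tested.

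Of the 10 Polycomb genes, Ezh1 and Cbx7 were called higher, Ring1 was called lower, and 7 were not called. The 3 calls stand against 33.0% of all genes called, the 2 higher against 18.5% and the 1 lower against 14.5%. The genotypes did not overlap in 6 of the 10, 5 with higher values in Setd5+/- and 1 with lower, against 65.3% of all genes. Without a fold limit the interval left out 0 in 7 of the 10, those 6 and Cbx2, against 63.9% of all genes. The median log2 fold change of the 10 was 0.20, beside -0.02 over all genes tested, whose quartiles were -0.38 and 0.43. It was 0.30 over the 5 PRC2 genes and -0.02 over the 5 PRC1 genes.

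**Figure D1:**
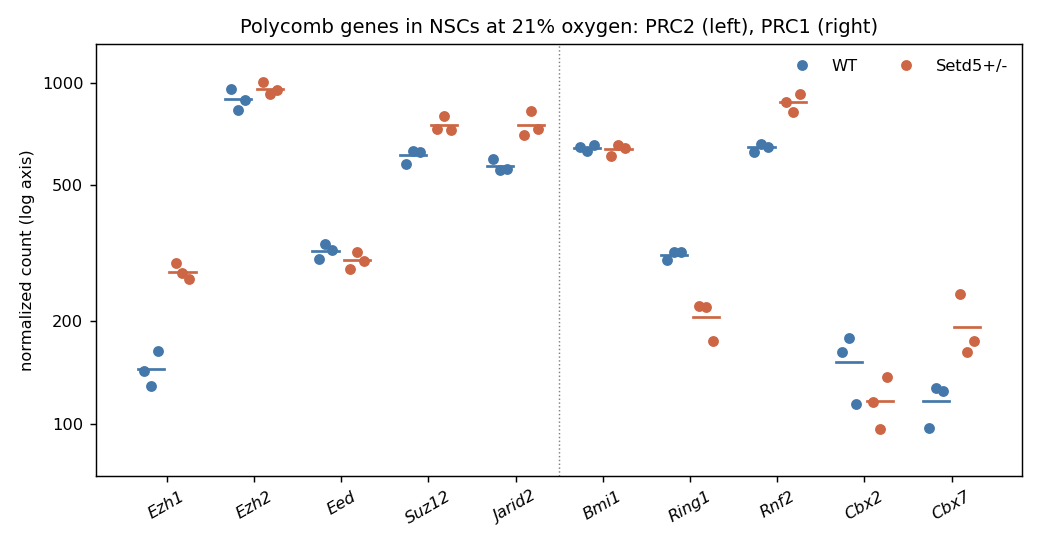
Normalized counts (log axis) of the 10 Polycomb genes in the 3 WT and the 3 Setd5+/- samples, which are parts of 1 library per genotype; each point is a sample and each line the mean of a genotype. The genotypes are apart for Ezh1, Suz12, Jarid2, Ring1, Rnf2 and Cbx7 and overlap for Ezh2, Eed, Bmi1 and Cbx2.

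Among the catalytic subunits of PRC2, only the less abundant one was called. Ezh1 (ENSMUSG00000006920, chr11:101191115-101226463, minus strand; all gene positions are in GRCm38), whose product is known as the weaker methyltransferase and as the form kept in cells that no longer divide, had 142.6, 129.1 and 163.1 normalized counts across the WT samples against 295.6, 276.3 and 265.6 across the Setd5+/- samples. Every Setd5+/- sample was above every WT sample. The mean went from 144.9 to 279.2, from 525 and 703 reads, a 1.92-fold rise (log2 0.94, 0.72 to 1.19), and 88.8% of all genes tested had a lower log2 fold change.

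Ezh2 (ENSMUSG00000029687, chr6:47530139-47595341, minus strand), the main methyltransferase of dividing progenitors, had 961.9, 832.3 and 891.9 normalized counts in WT against 1005, 925.3 and 953 in Setd5+/-. The groups overlapped, and the log2 fold change of 0.10 (-0.01 to 0.21) had an interval that held 0 and no change as large as 1.5-fold. Per kilobase of exon, the scale on which genes can be compared, Ezh2 stood at 134.1 and Ezh1 at 19.48 normalized counts in WT, and at 143.9 and 37.52 in Setd5+/-. The ratio of Ezh1 to Ezh2 was 0.1453 in WT and 0.2607 in Setd5+/-, a difference of 0.84 on the log2 scale (0.59 to 1.1). Ezh2 was thus the more abundant of the pair in both libraries.

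The core partners of the methyltransferases were not called. Eed (ENSMUSG00000030619, chr7:89954654-89980983, minus strand), which reads the H3K27 methyl mark and stimulates the enzyme, had 304.3, 336.7 and 323.8 normalized counts in WT against 284.8, 318 and 300.2 in Setd5+/-. Its groups overlapped, with a log2 fold change of -0.10 (-0.28 to 0.09). Suz12 (ENSMUSG00000017548, chr11:79993106-80034123, plus strand), the scaffold that holds the complex together, had 579.6, 629.6 and 626.9 in WT against 731.8, 796.7 and 725.5 in Setd5+/-. Here the groups were apart, and the log2 fold change of 0.30 (0.17 to 0.42) lay above 0 but below the 1.5-fold limit.

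Jarid2 (ENSMUSG00000038518, chr13:44729474-44921643, plus strand), an accessory subunit that helps PRC2 to reach its target genes, had 597, 555.1 and 559.8 normalized counts in WT against 703.2, 826.5 and 730.2 in Setd5+/-. Its groups were apart as well, with a log2 fold change of 0.40 (0.27 to 0.53), or 1.32-fold, that did not reach the limit. Suz12 and Jarid2 both lay between the quartiles of all genes on this scale.

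The promoters of the catalytic pair and of Suz12 are printed because E2F factors, which drive cell cycle genes, are known to act on PRC2 genes, and because Ezh1 and Ezh2 gave unlike values here. The sequences are from RefSeq (GRCm38.p6), read 5′ to 3′ along the gene, with 250 bases before the transcription start and 50 from it. Capitals mark the letters TTTCCCGC or TTTGGCGC, searched on both strands.
Ezh1 promoter (chr11:101226414-101226713, minus strand): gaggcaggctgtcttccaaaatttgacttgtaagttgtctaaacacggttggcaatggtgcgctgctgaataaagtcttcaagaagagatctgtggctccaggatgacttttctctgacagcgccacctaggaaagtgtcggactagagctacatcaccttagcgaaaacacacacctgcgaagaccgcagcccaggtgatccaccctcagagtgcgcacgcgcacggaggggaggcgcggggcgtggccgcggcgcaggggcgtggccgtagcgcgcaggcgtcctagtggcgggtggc
Ezh2 promoter (chr6:47594981-47595280, minus strand): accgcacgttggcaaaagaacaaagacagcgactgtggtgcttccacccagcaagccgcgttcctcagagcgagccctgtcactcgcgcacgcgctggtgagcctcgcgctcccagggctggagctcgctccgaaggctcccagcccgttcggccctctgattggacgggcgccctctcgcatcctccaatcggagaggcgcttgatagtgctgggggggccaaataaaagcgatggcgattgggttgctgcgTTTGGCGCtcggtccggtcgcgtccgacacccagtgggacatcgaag
Suz12 promoter (chr11:79992856-79993155, plus strand): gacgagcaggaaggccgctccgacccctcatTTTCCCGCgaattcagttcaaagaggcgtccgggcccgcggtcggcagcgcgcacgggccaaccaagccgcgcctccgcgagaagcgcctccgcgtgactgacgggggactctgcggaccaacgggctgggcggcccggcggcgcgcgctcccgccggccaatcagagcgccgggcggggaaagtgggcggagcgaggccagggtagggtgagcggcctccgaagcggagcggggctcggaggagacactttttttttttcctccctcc

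Of the 10 genes, 9 matched an entry in the promoter table; the other is Cbx2. The letters occurred in 2 of the 9, Ezh2 (3 bases after the start) and Suz12 (219 bases before it), and in none of the promoters matched to Ezh1, Eed, Jarid2, Bmi1, Ring1, Rnf2 and Cbx7. They occurred in 1.56% of all 32851 promoters of this length, and in 3.56% of the 10320 with at least 17 CpG dinucleotides. All matched members were CpG-rich, with 17 to 41 CpG in 300 bases against a median of 7 over all promoters, a number that was 23 in Ezh1, 31 in Ezh2 and 41 in Suz12. Ezh2 and Suz12 hold a match and were not called. Of the members without a match, Ezh1 and Cbx7 were called higher and Ring1 lower, while Eed, Jarid2, Bmi1 and Rnf2 were not called. This describes the letters in these windows and not the binding of any factor.

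**Figure D2:**
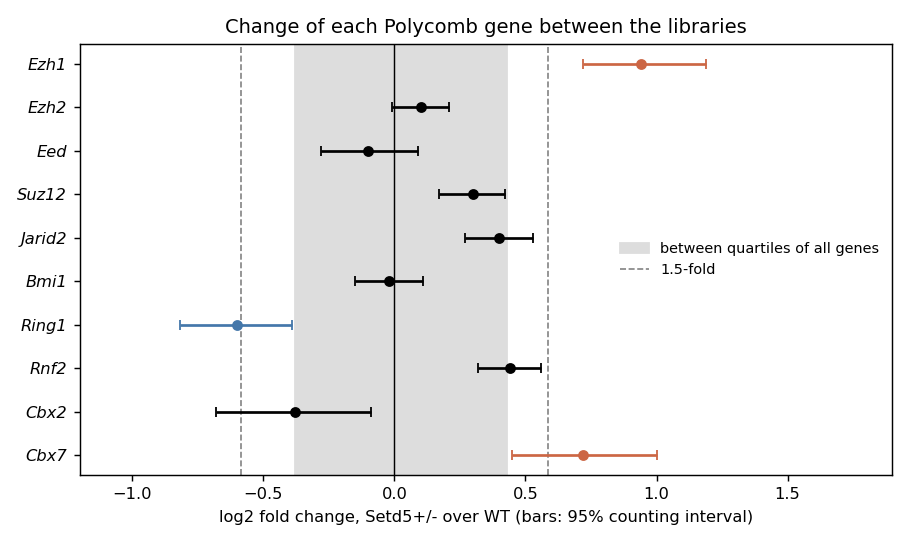
Log2 fold change of each Polycomb gene, Setd5+/- over WT, with its 95% counting interval; the grey band is the range between the quartiles of all 16266 genes tested (-0.38 to 0.43) and the dashed lines are 1.5-fold. Ezh1 and Cbx7 (orange, called higher) and Ring1 (blue, called lower) lie outside the band. Rnf2, at 0.44, and Cbx2, at -0.38, lie at its edges.

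In PRC1 the pair of ubiquitin ligases took opposite sides. Ring1 (ENSMUSG00000024325, chr17:34020792-34024680, minus strand) had 301, 319.3 and 318.8 normalized counts across the WT samples against 221.7, 220.3 and 175.1 across the Setd5+/- samples. All Setd5+/- values were below all WT values, and the level in Setd5+/- was 0.658 of that in WT (log2 -0.60, -0.82 to -0.39). This call lay near the limit: the log2 fold change was -0.50 without Setd5+/- replicate 3 and -0.56 when the libraries were scaled on genes outside chromosome 1, and Ring1 was then not called.

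Rnf2 (ENSMUSG00000026484, chr1:151458004-151500955, minus strand), the ligase known to carry most of the activity in embryonic cells, had 626.9, 663.5 and 647.6 normalized counts in WT against 880.8, 822.9 and 924.4 in Setd5+/-. Its groups were apart in the other direction, with a log2 fold change of 0.44 (0.32 to 0.56), or 1.36-fold, which did not reach the limit. Rnf2 lies on chromosome 1, where 475 of 1044 genes (45.5%) were called higher and 61 lower and the median log2 fold change was 0.53, while the median of every other chromosome tested was from -0.15 to 0.02. The value of Rnf2 was thus below the median of its own chromosome.

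Per kilobase of exon the ratio of Ring1 to Rnf2 was 0.6167 in WT and 0.2988 in Setd5+/-. This is a difference of -1.05 on the log2 scale (-1.29 to -0.80), and the 3 values of each genotype, 0.611 to 0.6265 in WT and 0.2411 to 0.3407 in Setd5+/-, did not overlap. Rnf2 was the more abundant ligase transcript in both libraries.

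Bmi1 (ENSMUSG00000026739, chr2:18677018-18686629, plus strand), the PCGF subunit of canonical PRC1, was the least changed of the 10 by its log2 fold change. It had 648.5, 629.6 and 655.1 normalized counts in WT against 607.8, 658.5 and 645.6 in Setd5+/-, values that overlapped, with a log2 fold change of -0.02 (-0.15 to 0.11). Of the 50-base words of its exons, 16.7% also occur in other genes, mostly in Gm5946 (201 normalized counts in WT, 245.8 in Setd5+/-), so that part of its count may be shared. Its paralogue Pcgf2, which takes the same place in the complex, had 81.73 and 90.14 normalized counts, and the ratio of Pcgf2 to Bmi1 per kilobase, 0.1429 and 0.1594, had a difference on the log2 scale of 0.16 (-0.22 to 0.53).

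Cbx7 and Cbx2, whose proteins read the H3K27 methyl mark, were the least abundant of the PRC1 members per kilobase of exon. Such low levels do not hold for every CBX gene. Cbx6, not a member, stood at 119.7 normalized counts per kilobase in WT and 123 in Setd5+/-. Cbx8, not a member either, was about as low as Cbx2, at 34.93 and 29.5 beside 35.6 and 27.33. Cbx7 (ENSMUSG00000053411, chr15:79915807-79971119, minus strand), known for holding stem cells in self-renewal and for repressing Cdkn2a, had 97.02, 127.4 and 125 normalized counts in WT against 239.6, 162 and 175.1 in Setd5+/-. The Setd5+/- values spread more widely than the WT values but did not overlap them, and the mean rose 1.64-fold (log2 0.72, 0.45 to 1.00). Without Setd5+/- replicate 1, the highest sample, it was 0.53 and Cbx7 was not called. Its exons overlap those of Apobec3 on the opposite strand by 100 bases, and Apobec3 was called higher too (159.3 and 287.9, log2 0.85). Only 0.76% of the 50-base words of Cbx7 are shared with Apobec3.

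Cbx2 (ENSMUSG00000025577, chr11:119022962-119031270, plus strand), a CBX protein known for compacting chromatin, had 161.7, 178.7 and 114.3 normalized counts in WT against 115.6, 96.46 and 137 in Setd5+/-. The groups overlapped, and its log2 fold change of -0.38 (-0.68 to -0.09) did not reach the limit. The ratio of Cbx7 to Cbx2 per kilobase of exon was 0.5044 in WT and 1.084 in Setd5+/-, a difference of 1.1 on the log2 scale (0.71 to 1.5). Which of the 2 was higher within a library depended on the length used: by the longest transcript the ratio was 0.8637 in WT and 1.856 in Setd5+/-. Their paralogues Cbx6 and Cbx8 were not called, with log2 fold changes of 0.04 and -0.24. The ratio of Cbx7 to each of these was higher in Setd5+/-, by 0.68 on the log2 scale for Cbx6 (0.40 to 0.96) and 0.97 for Cbx8 (0.56 to 1.37).

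**Figure D3:**
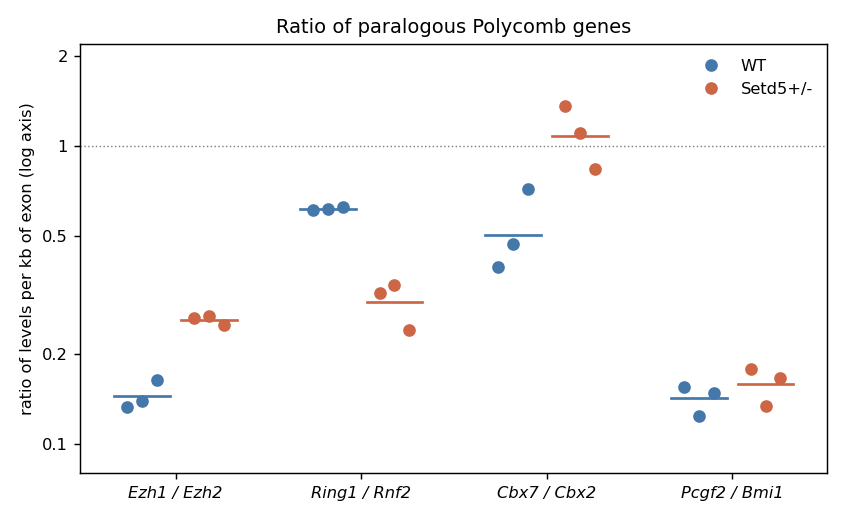
Ratio of normalized counts per kilobase of exon (log axis) between paralogous Polycomb genes in each sample (points) and in each library (lines), with the dotted line at equal levels. The WT and Setd5+/- points are apart for Ezh1 to Ezh2, Ring1 to Rnf2 and Cbx7 to Cbx2, and overlap for Pcgf2 to Bmi1.

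Per kilobase of exon, the order of levels in WT ran from Bmi1 (162.1 normalized counts) and Rnf2 (156.5) through Ezh2 (134.1), Suz12 (123.8), Ring1 (96.53), Eed (84.02), Jarid2 (58.74) and Cbx2 (35.6) down to Ezh1 (19.48) and Cbx7 (17.96). Counting error did not separate Bmi1 from Rnf2, nor Ezh1 from Cbx7, and separated the other 7 of 9 neighbouring pairs. In Setd5+/- the order began with Rnf2 (212.3) and went on with Bmi1 (160.4), Suz12 (151.9), Ezh2 (143.9), Eed (78.63), Jarid2 (77.54), Ring1 (63.43), Ezh1 (37.52), Cbx7 (29.63) and Cbx2 (27.33). There counting error separated 5 of the 9 pairs, and not Bmi1 from Suz12, Suz12 from Ezh2, Eed from Jarid2 or Cbx7 from Cbx2. The order and these separations hold for this length only: per kilobase of the longest transcript Ezh2 came first in both libraries (321.3 in WT and 344.8 in Setd5+/-), before Rnf2 (201.8 and 273.7) and Bmi1 (179.3 and 177.3).

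Reads can be shared with other genes in further members. Exons of Ezh2, Eed, Suz12 and Rnf2 overlap a gene on the opposite strand, with 1.11%, 5.82%, 2.6% and 2.59% of their 50-base words shared, and whether counting used strand is not given in the sources used here. The partner of Rnf2, Trmt1l, was called higher (264.2 and 407 normalized counts, log2 0.62), as was that of Suz12, Gm26563 (27.61 and 52.41, log2 0.90). The share was 0.093% in Ezh1, and no 50-base word of Jarid2, Ring1 or Cbx2 was shared.

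Another 42 genes of the Polycomb system were listed by complex, and 40 were tested. Of these 5 were called higher, 3 were called lower and 32 were not called, beside 18.5% and 14.5% of all genes called higher and lower, and their median log2 fold change was -0.01. Both counts lay below what these shares of all genes would give, while single accessory subunits had large changes. Among the 5 called higher, Scml4 passed the filter through the Setd5+/- samples alone, so that it had to be higher there.

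Among the other PRC2 genes, 2 of 9 were called higher and 1 lower. The Polycomb-like proteins, which bring PRC2 to CpG-rich DNA, held all 3 calls. Phf19 had 104.5, 91.83 and 112.6 normalized counts in WT against 261, 273.9 and 300.2 in Setd5+/-, a log2 fold change of 1.43 (1.18 to 1.70). Phf1 went from a mean of 118.4 to 215.6 (log2 0.86, 0.61 to 1.14), and it overlaps Cuta on the opposite strand. Mtf2 had 347.4, 387.2 and 400.8 normalized counts in WT against 267, 222.7 and 263.3 in Setd5+/-, a log2 fold change of -0.59 (-0.79 to -0.40). The groups were apart for all 3 genes, with Mtf2 on the other side from its paralogues. The change of Mtf2 lay near the limit and did not reach it without Setd5+/- replicate 2 (-0.51), WT replicate 2 (-0.57) or WT replicate 3 (-0.55), nor with the scaling on genes outside chromosome 1 (-0.55) or a pseudocount of 5 (-0.58). The histone-binding subunits Rbbp4 (log2 -0.58) and Rbbp7 (-0.38), which other chromatin complexes also contain, and Aebp2 (0.41), the partner of Jarid2 in the same form of PRC2, were not called, with Rbbp4 at the limit. It was past the limit when scaled to total reads (-0.62) or the upper quartile (-0.59), and at -0.60 without WT replicate 2, WT replicate 3 or Setd5+/- replicate 1.

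Among the other canonical PRC1 genes, 1 of 10 was called higher and 1 lower. Scml4, a gene related to the Drosophila Polycomb gene Scm, had 3.317, 3.309 and 3.313 normalized counts in WT against 115.6, 111.9 and 83.39 in Setd5+/-. With 12 reads in WT and 261 in Setd5+/-, its log2 fold change was 4.60 (3.80 to 6.43), and it passed the filter through the Setd5+/- samples alone. Scmh1, of the same family, had means of 259 and 164.4 and was called lower (log2 -0.65, -0.90 to -0.42). The polyhomeotic genes, whose proteins join PRC1 units into larger assemblies, were not called, at -0.16 for Phc1, -0.40 for Phc2 and 0.32 for Phc3.

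Variant PRC1 uses RYBP or YAF2 in place of a CBX protein, and 2 of its 16 listed genes were called higher and 1 lower. Bcor, a corepressor of the complex built on PCGF1, had 155.9, 199.4 and 154.9 normalized counts in WT against 525.6, 464.4 and 445.5 in Setd5+/-, which is 2.8-fold higher (log2 1.49, 1.29 to 1.69). Pcgf5 went from a mean of 95.24 to 206.1 (log2 1.11, 0.84 to 1.41). Yaf2 had 607.8, 649.4 and 592.9 normalized counts in WT against 367.1, 331.1 and 357.4 in Setd5+/-, a log2 fold change of -0.81 (-0.97 to -0.65). The groups were apart in all 3.

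The enzymes that undo the Polycomb marks were not called. None of the 3 tested genes of the H2A deubiquitinase complex PR-DUB passed, with log2 fold changes of -0.38 for Bap1, its catalytic subunit, 0.20 for Asxl1 and 0.04 for Asxl2. Asxl3 had 28 reads in WT and none in Setd5+/-, and the upper end of its counting interval was -1.21 on the log2 scale. Its mean of 7.732 normalized counts in WT left it below the filter. Of the H3K27 demethylases, Kdm6a had 456.1, 441.8 and 477.8 normalized counts in WT against 693.6, 649 and 700.4 in Setd5+/-, a log2 fold change of 0.57 (0.43 to 0.71) just under the limit, and past it without WT replicate 3 (0.60) or Setd5+/- replicate 2 (0.60) or with the scaling on genes outside chromosome 1 (0.61). Kdm6b, at 938.9 and 750.9, had -0.32 (-0.44 to -0.21).

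**Figure D4:**
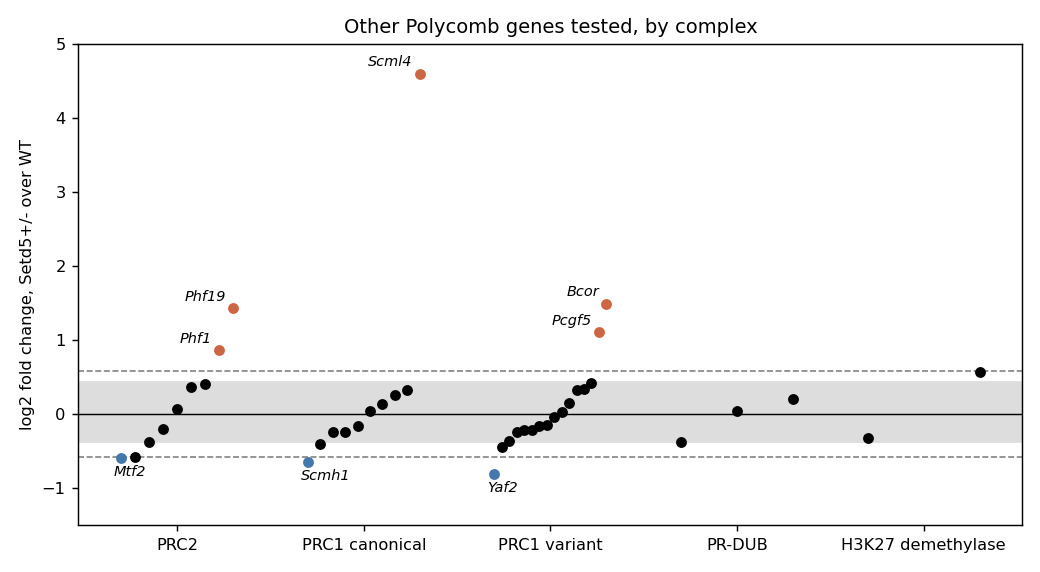
Log2 fold change, Setd5+/- over WT, of the 40 other Polycomb genes tested, each point 1 gene, by complex; the grey band is the range between the quartiles of all genes tested and the dashed lines are 1.5-fold. The 8 named genes were called (orange higher, blue lower), and Scml4, at 4.60, lies far above the rest.

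Genes known to be silenced by Polycomb were set beside the complexes. The list held 61 genes, among them all 39 Hox genes, and the rise of Hox genes in these data was known when the list was written, so that its direction is not independent evidence. No read was found in either library for 34 of the 61. Only 14 passed the filter on low values, and 6 of these, all HoxA genes, passed it through the Setd5+/- samples alone, so that they had to be higher there. For this reason the counts of 8 called higher, 7 of them HoxA genes, and 3 called lower describe the list and are not support for a direction; of all genes, 18.5% were called higher and 14.5% lower. Transcription factors of the HoxA cluster set position along the body axis behind the forebrain, and their reads summed to 69 in WT and 2881 in Setd5+/-.

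The HoxA genes with the largest changes had next to no reads in WT. Hoxa7 had 526.8, 470.4 and 469.3 normalized counts in Setd5+/- and no read in WT. The lower end of its counting interval was 7.90 on the log2 scale. That lower end was 6.91 for Hoxa3, 6.56 for Hoxa5 and 3.90 for Hoxa6, which had no read in WT either. Hoxa4, with 2 reads in WT and 141 in Setd5+/-, had a log2 fold change of 5.20 (4.13 to 11.98). The other clusters did not pass the filter, with 2 reads in WT and 0 in Setd5+/- over HoxB, 0 and 0 over HoxC, and 7 and 0 over HoxD.

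The Cdkn2a locus, a textbook target of BMI1 and CBX7, gave opposite values for neighbouring genes. Cdkn2a, which encodes the cell cycle inhibitor INK4A and the p53 activator ARF, had 300.2, 317.7 and 300.6 normalized counts in WT against 16.69, 19.05 and 13.1 in Setd5+/-. It fell from 1109 reads to 41, a log2 fold change of -4.15 (-4.99 to -3.63), and the groups were far apart. Cdkn2b, which encodes the related inhibitor INK4B, had 115.3, 140.6 and 134.2 normalized counts in WT against 175.2, 200.1 and 212 in Setd5+/-, a log2 fold change of 0.59 (0.32 to 0.85), just past the limit. It did not reach the limit without WT replicate 1 (0.51), Setd5+/- replicate 2 (0.57) or Setd5+/- replicate 3 (0.53), nor when scaled to total reads (0.55) or the upper quartile (0.58) or with a pseudocount of 5 (0.57). The other 2 genes called lower were T, a mesoderm regulator (log2 -2.36, from 71.5 to 13.1 normalized counts), and Lhx2, a forebrain regulator that is also active in NSCs (log2 -0.61). The change of Lhx2 did not reach the limit with the scaling on genes outside chromosome 1 (-0.56) or without WT replicate 2 (-0.58).

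Proliferation markers were set beside these values because Ezh2 and Suz12 are more highly expressed in dividing cells. Of 8 tested, none was called higher and 2 were called lower, Mcm5 (log2 -1.04) and Pcna (-1.75), beside 18.5% and 14.5% of all genes. Mki67 (0.35), Top2a (0.52) and Ccnb1 (0.58) had values above 0 that did not reach the limit, with Ccnb1 just under it. Mcm2 (-0.41), Cdk1 (-0.11) and Ccna2 (-0.05) had values below 0 and were not called. The summed level was 7294 normalized counts in WT and 7995 in Setd5+/-. The part of proliferation in the values of Ezh2, Suz12 and Ezh1 was not tested.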

How the data were processed

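RNA-seq of 3 samples labelled WT and 3 labelled Setd5+/- was used. Per the labels and methods, the authors trimmed reads with Trimmomatic, aligned them to mm10 with Bowtie2 and divided counts by DESeq2 size factors. The normalized counts that the authors deposited had lost their decimal points. These were restored by choosing the place that gave whole reads (1 read is worth 0.829, 0.827 and 0.828 in WT and 1.19 in Setd5+/-); the deposited mean placed 1116 genes and equals the restored mean in all 52438 genes with values. All columns of samples were used, and the columns of the authors' own DESeq2 comparison (log2 fold changes, p-values) were not. Read variance over the mean was 1.95 and 1.94, so intervals use read pairs. Calls follow the fold and interval given above, with Python 3.11.15 and scipy 1.17.1. The rule was tried on simulated data with counting noise only, which cannot show how calls vary between cultures. Limma 3.58.1 served as an alternative. Gene positions and lengths are from GENCODE (GRCm38). Replicate numbers do not pair samples (correlation of deviations 0.00131, -0.0151 and -0.0122).

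Named genes are all members, paralogues of members, the largest rise and fall in each list of other Polycomb genes, and Cdkn2a, Cdkn2b and the 5 largest changes among called Polycomb-repressed genes; 1 gene that the rule names is not reported here, and further genes were named after their values were seen. The members and lists were chosen with earlier results of these data known.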

Additional observations from a re-analysis of the deposited data

How the results depend on the processing

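The log2 fold changes of 52 genes named in the text were computed under 11 alternatives of scaling, pseudocount or samples left out, and 565 of 572 values stayed within the counting interval. The 7 others came with a pseudocount of 5, which moved Scml4 to 3.71, Sox10 to -5.52 and Hoxa3 to Hoxa7 to between 2.86 and 6.63, all in the same direction. The fold limit decided the counts. With a fold of at least 2, 2657 genes, 0 Polycomb members and 4 other Polycomb genes were called. With no fold limit and a counting interval without 0 it was 10393 genes, 7 members and 27 others. Limma, called by adjusted p-value with no fold limit, gave 9963, 6 and 26. It takes the 3 samples of a genotype as replicates. Since they were treated as parts of 1 library, its calls do not measure the spread between cultures. Limma with the replicate block gave 9946, 7 and 26. With a filter at a mean of 50, 6 Polycomb-repressed genes were called instead of 11. Leaving out each sample in turn gave 2 to 3 called members and log2 fold changes of 0.86 to 1.03 for Ezh1, 0.53 to 0.83 for Cbx7, -0.66 to -0.50 for Ring1 and -0.04 to 0.02 for Bmi1, the one member whose sign turned. Other scalings shifted all log2 values by -0.04, -0.01 or 0.04. Depth leaves wide intervals for Cbx2 and Cbx7, and with n = 1 no setting measures the spread between cultures.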
